A study of Mus musculus with 4 samples.

Results

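The Gimap genes encode the GTPases of the immunity-associated protein family. They were taken here as all rows of the deposited table whose gene symbol begins with Gimap and a digit, which gave 8 genes of 11883. RefSeq lists 8 Gimap genes of this kind for the mouse, so the whole family was measured. RNA came from lung T helper 2 (Th2) cells, sorted as live CD4+ T1ST/2+ cells from C57BL/6 mice given chronic papain, a protease from papaya that serves as an experimental airway allergen. There were 2 samples of genotype Gata3(fl/fl), called control below, and 2 of genotype Klrg1Cre Gata3(fl/fl), called Klrg1Cre. Both genotypes carried Gata3 alleles flanked by sites for Cre recombinase and both received papain, while the Cre allele named for Klrg1, a receptor of differentiated lymphocytes and of group 2 innate lymphoid cells (ILC2), was present in the second only. No group carried this Cre without floxed Gata3. The table names its groups WT and ILC2 deficient, which were taken as control and Klrg1Cre, a link that the labels do not state. The ages of the mice were not given in the sources used here, nor whether each sample was a separate mouse, so the p-values measure a spread that may be technical.

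Gimap proteins bind guanine nucleotides through a domain shared by the family and are found in lymphocytes, where several of them sit on membranes of the endoplasmic reticulum, Golgi, mitochondria or lysosomes. Loss of single members, best known for Gimap5, shortens the life of T cells and leaves animals short of lymphocytes. Some members have been described as partners of BCL-2 family proteins, which decide between survival and death of a cell, and Gimap6 as a partner of the autophagy protein GABARAPL2. The genes lie side by side in a single cluster on mouse chromosome 6, in the order Gimap8, Gimap9, Gimap4, Gimap6, Gimap7, Gimap1, Gimap5 and Gimap3 (RefSeq, GRCm38.p6). Within that stretch the table held 0 other protein-coding genes.

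Upstream sequence is shown for the 3 neighbouring genes with the lowest ratios between genotypes, Gimap4, Gimap6 and Gimap7. It is also shown for Gimap1, the next gene in the cluster, whose ratio was close to that of the median gene. Each line is the 250 bases before the start of the RefSeq gene, 5′ to 3′ on the strand of the gene. The positions in GRCm38.p6 are chr6:48684328-48684577 on the plus strand for Gimap4, chr6:48708245-48708494 on the minus strand for Gimap6, chr6:48718371-48718620 on the plus strand for Gimap7 and chr6:48738797-48739046 on the plus strand for Gimap1. Capitals mark exact matches, on either strand, to a RUNX motif (TGTGGT) or an ETS motif (GGAAGT).
Gimap4: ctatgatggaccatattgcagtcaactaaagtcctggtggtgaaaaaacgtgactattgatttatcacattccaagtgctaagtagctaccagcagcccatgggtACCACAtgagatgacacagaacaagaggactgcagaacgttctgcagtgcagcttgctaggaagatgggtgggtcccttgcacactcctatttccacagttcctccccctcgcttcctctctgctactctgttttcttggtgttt
Gimap6: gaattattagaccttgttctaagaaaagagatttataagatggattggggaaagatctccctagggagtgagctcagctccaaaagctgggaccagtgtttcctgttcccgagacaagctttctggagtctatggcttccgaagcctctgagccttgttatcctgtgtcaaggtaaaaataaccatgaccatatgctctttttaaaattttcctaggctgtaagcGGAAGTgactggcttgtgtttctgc
Gimap7: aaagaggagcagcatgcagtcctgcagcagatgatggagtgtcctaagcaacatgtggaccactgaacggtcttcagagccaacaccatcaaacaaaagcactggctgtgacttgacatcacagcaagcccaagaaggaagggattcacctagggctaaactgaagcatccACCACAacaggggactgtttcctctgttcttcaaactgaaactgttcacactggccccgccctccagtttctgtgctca
Gimap1: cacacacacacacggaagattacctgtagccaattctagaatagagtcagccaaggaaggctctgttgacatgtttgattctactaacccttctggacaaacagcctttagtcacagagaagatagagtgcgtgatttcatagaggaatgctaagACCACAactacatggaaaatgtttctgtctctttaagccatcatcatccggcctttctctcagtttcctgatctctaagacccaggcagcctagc

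Further motifs were searched on both strands in the window from 250 bases before to 50 bases after the start. These were AGATAA for GATA factors, TGTTTAC for FOXO factors and GGGTGTG for KLF factors. The 9 RefSeq windows of the 8 genes (Gimap8 has an extra one) held AGATAA in 0 cases, against 11.2% of all 32851 windows of that length. The RUNX motif was present in 3 of the 9, those of Gimap1, Gimap4 and Gimap7, against 16.8% of all windows. The ETS motif was found in 4, those of Gimap1, Gimap5, Gimap6 and Gimap9 (23.8% of all windows), though in Gimap1 and Gimap9 the match lay after the start. TGTTTAC was present for Gimap3 alone (3.65% of all windows), and GGGTGTG for none of them (7.95%). None of the motifs searched was found for all of Gimap4, Gimap6 and Gimap7, the genes with the lowest ratios, so Gimap1 gives no contrast here. A match or its absence in these letters says nothing of binding.

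The 4 libraries held between 14564426 and 33379572 reads, as read off the whole-read steps in the group means. Rn45s, the precursor of ribosomal RNA, took 67.1% of Klrg1Cre reads and 51.4% of control reads. The other genes of the table took 18.2% and 17.8%. Gata3, the gene that the Cre targets, was listed at 293.9 CPM for Klrg1Cre against 221.4 CPM for control in the authors' deposited table, a ratio of 1.33 (unadjusted p = 0.0115, adjusted p = 0.551). Its mean was therefore not lower in Klrg1Cre. A value over the whole gene does not check whether the floxed part was deleted. Values are in read counts scaled to the total of a library (CPM), given as the authors' group means. Both libraries of each group could be worked out for Gimap6, Gimap7 and Gimap9, but not for the other 5 members, which are given as means without a spread. Markers of T cells were abundant, with 15 of 18 listed (Trac, Trbc1 and Trbc2 were not listed). Their summed level was 1843 CPM for Klrg1Cre against 1807 CPM for control in the authors' deposited table.

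No Gimap gene passed the adjusted threshold, but 3 neighbours in the cluster, Gimap7, Gimap4 and Gimap6, had lower means in Klrg1Cre at small unadjusted p-values, while the other 5 had log2 ratios between -0.24 and 0.07. In the authors' deposited table, 0 of 8 members had an adjusted p below 0.05 (Benjamini-Hochberg over all genes), where 0.0589% of all genes did. At an unadjusted p below 0.05, 3 of 8 had lower means and 0 had higher means in the same deposited table, against 3.37% of all genes lower and 3.72% higher. All members but Gimap1 and Gimap8 had the lower mean in Klrg1Cre, a side on which 49.4% of all genes lay. The median log2 ratio of the 8 members was -0.23 and that of all genes was 0.01, with quartiles of all genes at -0.23 and 0.22. In bulk RNA, fewer cells that express a gene and less RNA per cell cannot be told apart.

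**Figure D1:**
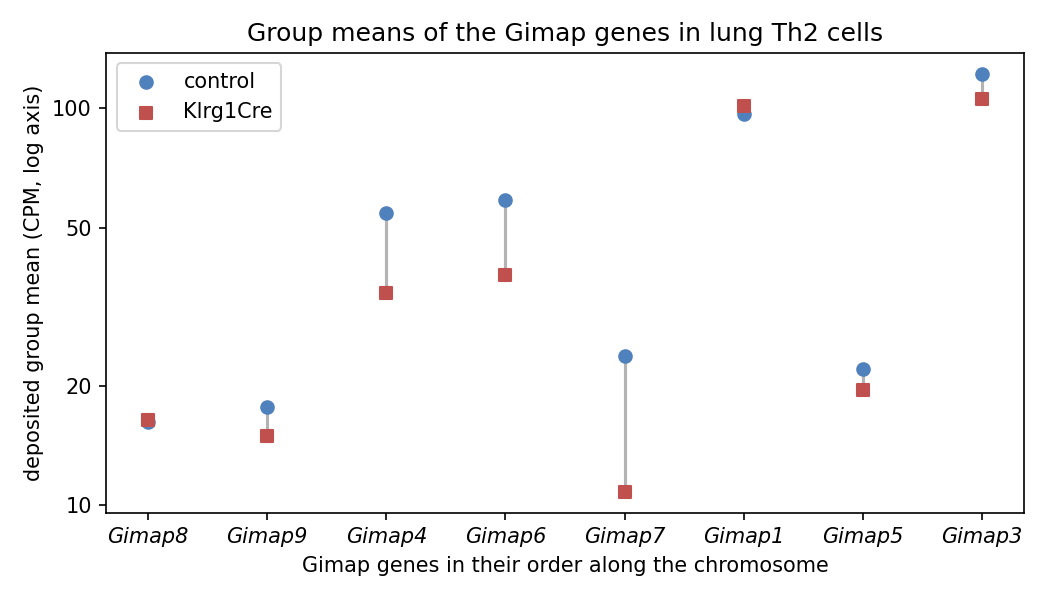
Deposited group means (CPM, log axis) of the 8 Gimap genes in chromosome order, circles for control and squares for Klrg1Cre, each the authors' mean of 2 libraries. Gimap4, Gimap6 and Gimap7, side by side in the cluster, show the widest gaps, from 54.6, 58.7 and 23.7 CPM in control to 34.2, 37.9 and 10.8 CPM in Klrg1Cre.

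Gimap7, whose human protein has been shown to pair with itself and with another member to hydrolyse GTP, had the lowest ratio of the family. In Klrg1Cre the libraries held 7.46 and 14.1 CPM (194 and 206 reads), and in control 21.4 and 26.0 CPM (713 and 832 reads). Both Klrg1Cre libraries lay below both control libraries, and the higher Klrg1Cre library was at 66.2% of the lower control library. Mean levels were 10.8 ± 4.73 CPM for Klrg1Cre against 23.7 ± 3.30 CPM for control (SD, n = 2). The authors' deposited table gives this as 2.19-fold lower, with an unadjusted p of 0.00183 and an adjusted p of 0.303. By p-value Gimap7 ranked 72 among the 11883 genes, and 3.56% of genes had a lower ratio. With limma on log2(CPM + 1), fitted to the 4242 genes with both libraries of each group worked out and a mean of at least 1 CPM, the log2 difference was -1.12 with a standard error of 0.25 and an adjusted p of 0.174.

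Gimap6, the member tied to autophagy, showed the same arrangement of libraries at a higher level. The Klrg1Cre libraries held 32.01 and 43.8 CPM (833 and 638 reads) and those of control 53.8 and 63.6 CPM (1795 and 2032 reads). Again the groups did not overlap, and the Klrg1Cre library nearer to control was the smaller one, as for Gimap7. Both genes therefore had non-overlapping groups, as did 18.3% of the 5351 genes with libraries worked out when counted in that direction. The means were 37.9 ± 8.34 CPM and 58.7 ± 6.93 CPM (SD, n = 2). In the authors' deposited table Gimap6 was 1.55-fold lower, with an unadjusted p of 0.00500 and an adjusted p of 0.412. The limma difference was -0.63 on the log2 scale, with a standard error of 0.17 and an adjusted p of 0.306.

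Gimap4, a protein of T cells linked to the pace of their death after activation, could be given as group means alone. They stood at 34.2 CPM for Klrg1Cre against 54.6 CPM for control, 1.59-fold lower in the authors' deposited table, with an unadjusted p of 0.00463 and an adjusted p of 0.412. Ranks by p-value were 129 for Gimap4 and 141 for Gimap6, and 1.18% of all genes had a smaller p than Gimap6. Together these genes summed to 82.9 CPM under Klrg1Cre against 137.0 CPM in control, which was 24.4% of the summed Gimap level in the first group and 33.3% in the second.

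The size of the Gimap7 and Gimap6 differences, and their call with limma, depended on 1 library. The log2 ratio of Gimap7, -1.13, became -1.67 when the smaller Klrg1Cre library was left out and -0.74 when the larger was. That of Gimap6, -0.63, became -0.87 and -0.42. Left with the larger Klrg1Cre library alone, limma gave adjusted p-values of 8.32e-05 for Gimap7 and 0.00743 for Gimap6. That fit called 1.51% of its 4242 genes, against 0.165% with all libraries, and assumes that the lone library varies like the control pair. Removing the larger Klrg1Cre library instead left adjusted p-values of 0.105 and 0.376 for the 2 genes, in a fit that called 1.37% of all. Between the Klrg1Cre libraries Gimap7 differed 1.90-fold, a gap exceeded by 1.66% of the 1685 genes of at least 10 CPM with libraries worked out, whose median gap was 1.13-fold. Gimap6 differed 1.37-fold there, exceeded by 11.9% of those genes. The same Klrg1Cre libraries also differed in markers of other cells. Gpnmb, a gene of macrophages added after its values were seen, held 354.7 CPM in the larger and 119.3 CPM in the smaller. In control it held 183.9 and 193.3 CPM. The 8 macrophage markers with libraries worked out do not include Chil3 or Lyz2. They summed to 27.2 CPM in the larger and 19.6 CPM in the smaller, against 25.2 and 28.9 CPM in control. Cd8b1, a CD8 T cell marker, held 1.88 and 4.26 CPM, against 2.73 and 3.13 CPM in control. The 5 epithelial markers with libraries worked out summed to 11.9 CPM in the larger and 20.1 CPM in the smaller. Their sums in control were 16.2 and 15.7 CPM. For T cells, the sorted cells, the sums of 9 markers differed less, at 1007 and 1095 CPM against 1055 and 1029 CPM in control. The part of these levels in the gap between the libraries was not tested.

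**Figure D2:**
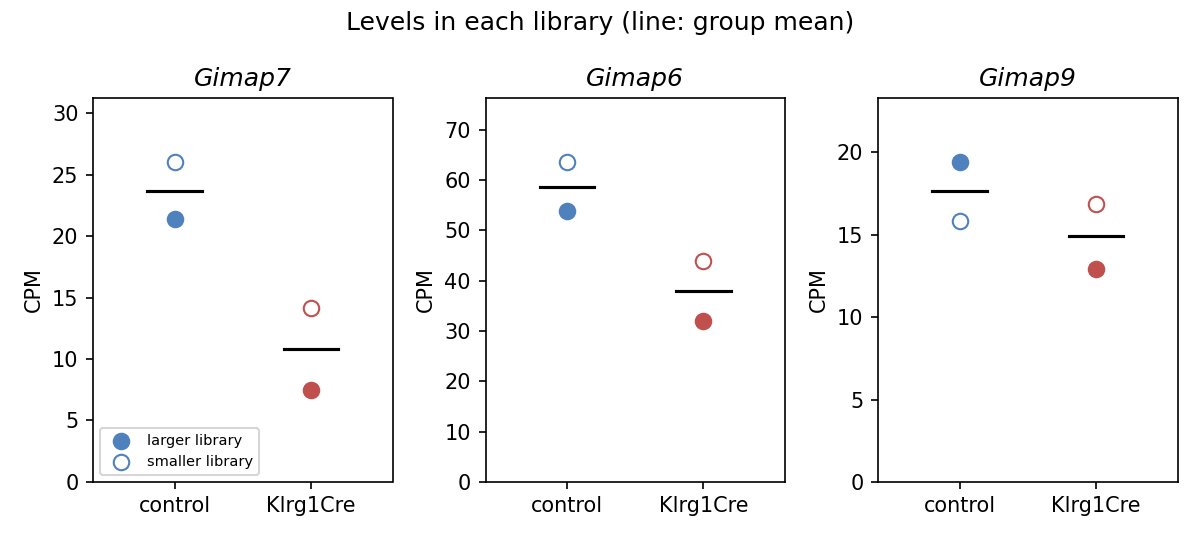
CPM in each library for Gimap7, Gimap6 and Gimap9, with control in blue, Klrg1Cre in red, filled circles for the larger and open circles for the smaller library of a group, and a line at the group mean. For Gimap7 and Gimap6 both Klrg1Cre libraries lie below both control libraries, with the smaller Klrg1Cre library the nearer to control, while the groups overlap for Gimap9.

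Gimap9, the neighbour of Gimap4 on the other side from Gimap6, had overlapping groups. Levels were 12.9 and 16.9 CPM for the Klrg1Cre libraries (336 and 246 reads) and 19.4 and 15.8 CPM for those of control (648 and 506 reads). The smaller Klrg1Cre library was above the smaller control library, and the means of 14.9 ± 2.81 and 17.6 ± 2.53 CPM (SD, n = 2) differed by less than the libraries within either group. The authors' deposited table lists Gimap9 as 1.18-fold lower with an adjusted p of 0.815. limma gave a log2 difference of -0.23 with a standard error of 0.19 and an adjusted p of 0.829.

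Gimap5 and Gimap3 are close relatives, the first a lysosomal protein needed for the survival of peripheral T cells and the second a mouse protein described on mitochondria and the endoplasmic reticulum. Deposited means of Gimap5 in the authors' deposited table were 19.5 CPM for Klrg1Cre against 22.0 CPM for control, 1.13-fold lower with an adjusted p of 0.838. Those of Gimap3 in the authors' deposited table were 105.3 and 122.1 CPM, 1.16-fold lower with an adjusted p of 0.808. Neither gene stood apart from the bulk of the transcriptome, since 29.4% of genes had a lower ratio than Gimap5 and 26.2% a lower ratio than Gimap3. These members share sequence: 190 windows of 50 bases occur in transcripts of both, which is 4.53% of the windows of Gimap5 and 7.52% of those of Gimap3 (GENCODE M21), so their reads could be split between them. No other pair of members shared such a window. RefSeq also lists the symbol Gimap5 as an older name of Gimap3.

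Gimap1, which mature T and B cells need to persist, and Gimap8, a large member with repeated GTPase domains, had nearly equal means in both genotypes. Gimap1 stood at 101.5 CPM against 96.9 CPM in control in the authors' deposited table, a ratio of 1.05 with an adjusted p of 0.938. Gimap8 stood at 16.3 and 16.2 CPM in the authors' deposited table, a ratio of 1.01 with an adjusted p of 0.997. The log2 ratio of Gimap8 went from 0.01 to -0.01 when the listed genes other than Rn45s were scaled to the same total, so it has no direction here. GENCODE places a noncoding transcript, Gimap1os, opposite to Gimap1, and a joined transcript, Gm28053, across Gimap7, Gimap1 and Gimap5. Whether the library kept strand is not given in the sources used here, so reads of Gimap1 and Gimap1os cannot be told apart, and reads of Gimap7, Gimap1 and Gimap5 may include some of Gm28053.

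**Figure D3:**
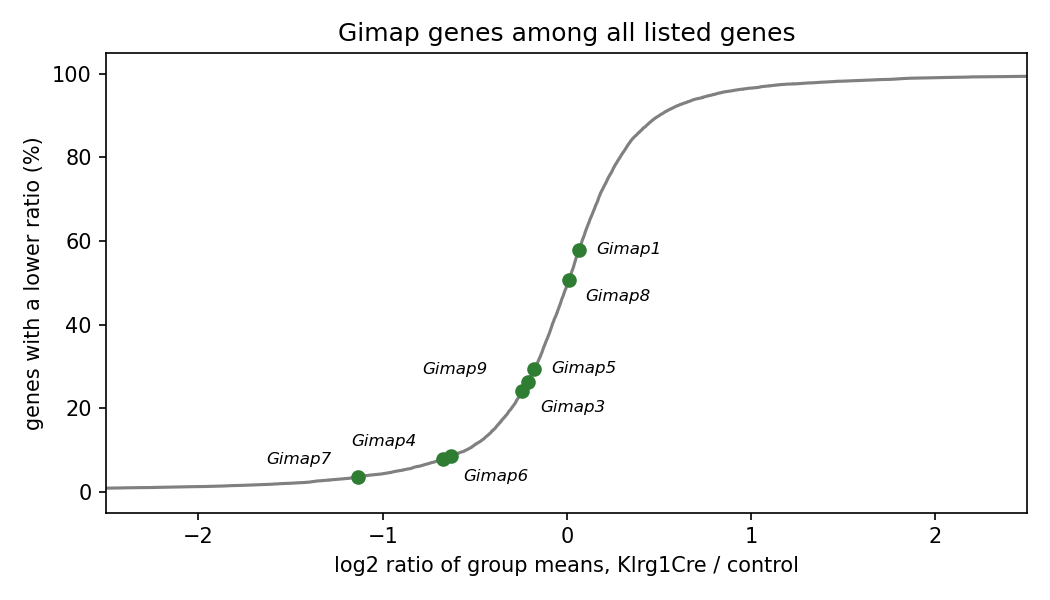
Share of all 11883 genes with a lower log2 ratio (vertical axis, %) against the log2 ratio of group means (horizontal axis), grey line for all genes and green points for the 8 Gimap genes. Gimap7 sits at 3.56%, Gimap4 at 7.83% and Gimap6 at 8.45%, while the other 5 lie between 24.1% and 57.9%; the horizontal axis is limited to the central part of the range.

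The make-up of the family in these cells was dominated by Gimap1 and Gimap3. Summed over the 8 genes, the authors' deposited means came to 340.5 CPM for Klrg1Cre against 411.9 CPM for control, a log2 ratio of -0.27 that carries no test. Of this sum, Gimap1 and Gimap3 held 60.7% in Klrg1Cre and 53.2% in control. Gimap4, Gimap6 and Gimap7, the 3 with an unadjusted p below 0.05, made up 75.7% of the net difference between the sums. A large share follows in part from that choice. Gimap3 also had a lower mean, at 105.3 against 122.1 CPM, while Gimap1 and Gimap8 went the other way. For the 3 members with libraries, the sums per library were 52.4 and 74.8 CPM for Klrg1Cre against 94.5 and 105.4 CPM for control. These did not overlap, as was so in that direction for 18.3% of 5351 single genes. Gimap6, itself without overlap, held most of each sum, so the sums are no separate result, and Gimap9 on its own overlapped. Levels of different genes were compared per kilobase of exon (GENCODE M21, all exons of a gene merged). In control the order in CPM per kilobase was Gimap3 at 47.4, Gimap1 at 31.5, Gimap4 at 29.7, Gimap6 at 16.8, Gimap9 at 10.7, Gimap7 at 10.2, Gimap5 at 5.31 and Gimap8 at 4.38. Gimap9 and Gimap7 did not differ beyond their spread there, with libraries of 11.8 and 9.64 against 9.19 and 11.2 CPM per kilobase. In Klrg1Cre, Gimap7 came just above Gimap8, the last in the order, at 4.65 CPM per kilobase, and its libraries at 3.21 and 6.08 lay below those of Gimap9 at 7.86 and 10.3. Gimap6 was above Gimap9 within each Klrg1Cre library, at 9.16 against 7.86 CPM per kilobase in the larger and 12.5 against 10.3 in the smaller. Across those libraries the ranges of the genes overlapped. In control they did not overlap, with Gimap6 at 15.4 and 18.2 CPM per kilobase above both libraries of Gimap9. For neighbours that include another member no spread was at hand.

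Listed genes on either side of the cluster were compared because the genes with the lowest ratios were adjacent. Of the 10 nearest protein-coding genes in the table, 5 on each side, 0 had an adjusted p below 0.05. At an unadjusted p below 0.05, 5 had lower means in Klrg1Cre and 0 had higher means in the authors' deposited table, beside the 3.37% and 3.72% of all genes. The median log2 ratio of the 10 was -0.59. Tmem176b and Tmem176a, membrane protein genes that lie next to Gimap3, were 1.91-fold and 2.09-fold lower in the authors' deposited table (adjusted p = 0.551 for each). Their means were low, at 4.74 against 9.06 CPM and 2.07 against 4.33 CPM. On the far side of Gimap8, the authors' deposited table lists Zfp467, a zinc finger gene, 2.43-fold lower at 1.56 against 3.80 CPM (adjusted p = 0.419) and Krba1 1.64-fold lower (adjusted p = 0.596). Malsu1, which encodes a mitochondrial ribosome assembly factor, held 6.73 and 6.39 CPM in the Klrg1Cre libraries and 9.29 and 9.35 CPM in the control libraries (adjusted p = 0.658 in the authors' deposited table). Zfp775, the nearest of the 10 on the Gimap8 side, went the other way, with Klrg1Cre libraries at 5.50 and 3.91 CPM against 3.57 and 1.88 CPM. In these group means the lower ratios were thus not continuous along the chromosome, though no spread was at hand for Gimap8, Repin1 or Gimap1. Gimap8, Repin1 (log2 ratio 0.04) and Zfp775 stood between the lower genes of the cluster and those beyond it on that side, and Gimap1 stood between Gimap7 and the Tmem176 genes on the other.

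**Figure D4:**
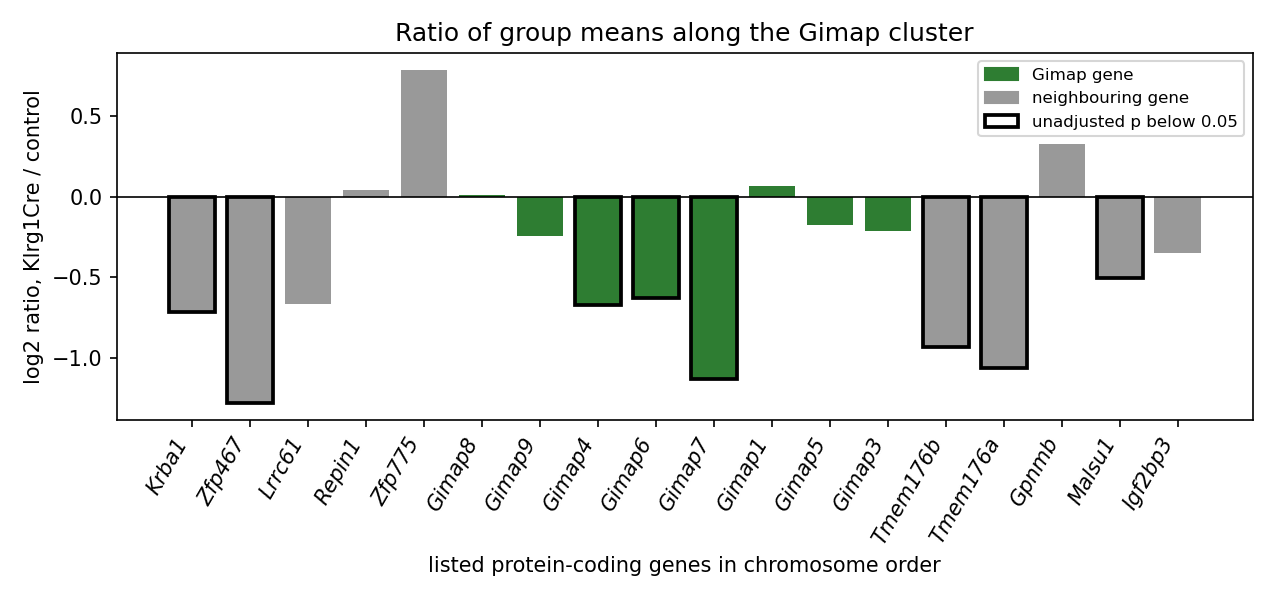
Log2 ratio of group means, Klrg1Cre over control, for the 8 Gimap genes (green) and the 5 nearest listed protein-coding genes on each side (grey), in chromosome order with no distances drawn; black outlines mark an unadjusted p below 0.05 and no gene shown passed adjustment. Gimap4, Gimap6 and Gimap7 (-0.67, -0.63 and -1.13) stand between Gimap9 at -0.24 and Gimap1 at 0.07.

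The 4 libraries of 1682 genes of at least 10 CPM were compared with the summed CPM of Gimap6, Gimap7 and Gimap9. Genes were ranked by the largest difference in any library after centring log2(CPM + 1). The nearest were Fam3c, Ccs, Cbx7, Asxl1 and Hacd3, with largest differences from 0.10 to 0.15. Fam3c, encoding a secreted protein, held 11.1 and 18.0 CPM for Klrg1Cre against 20.1 and 24.2 CPM for control. Cbx7, encoding a Polycomb protein, held 10.95 and 15.04 CPM against 17.4 and 19.1 CPM. With 4 libraries such likeness is a description of their order. In each of these genes the smaller Klrg1Cre library was the higher of its group, as in the summed level they were matched to.

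Lists of genes related to the family had members on both sides. Of 14 genes described as partners of Gimap proteins or of their pathways (BCL-2 family, GSK3 and autophagy), 0 passed adjustment in the authors' deposited table, 1 had a lower mean at an unadjusted p below 0.05 and 0 a higher one, and the median log2 ratio was -0.04. Over all genes 0.0589% passed adjustment, 3.37% were lower and 3.72% higher by the same rules. The lower one was Bcl2l11, encoding the death-promoting protein BIM, at 9.95 against 17.1 CPM (adjusted p = 0.355 in the authors' deposited table). Bax, whose protein opens the mitochondrial membrane in dying cells, had deposited means of 53.9 and 53.3 CPM in the authors' deposited table. Gabarapl2, the Gimap6 partner, had 24.6 against 29.7 CPM there (adjusted p = 0.740 in the authors' deposited table). Among 20 genes of lymphocyte quiescence, the resting state that T cells lose in the absence of Gimap5, 0 passed adjustment, 1 had a lower and 2 a higher mean at an unadjusted p below 0.05 (3.37% and 3.72% of all genes), and the median was -0.02. Il7r, the receptor for a survival cytokine, was at 56.1 against 91.3 CPM (adjusted p = 0.268 in the authors' deposited table). Foxp1, a factor that keeps T cells resting, was at 32.2 against 21.2 CPM (adjusted p = 0.321), and Klf2, which directs recirculation, at 4.88 against 2.08 CPM (adjusted p = 0.428), again from the authors' deposited table. Members of this list thus lay on both sides.

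Other cells that express Gimap genes could add reads to the sort, so their markers are given beside the family. In the authors' deposited table the T cell markers had a median log2 ratio of 0.06, with 3 of 15 (Cd247, Zap70 and Thy1) higher in Klrg1Cre at an unadjusted p below 0.05 and 0 lower, where 3.72% of all genes were higher and 3.37% lower. Cd4 itself held 158.6 and 176.5 CPM in the Klrg1Cre libraries and 158.7 and 141.4 CPM in the control libraries. The B cell markers, 5 of 9 listed, summed to 5.57 CPM in Klrg1Cre and 6.78 CPM in control in the authors' deposited table, and Ms4a1 was listed at 0 in Klrg1Cre. Of the natural killer cell markers, 2 of 9 were listed, Gzma and Prf1, at sums of 0.356 and 1.12 CPM (Ncr1 and Klrb1c were not listed). The CD8 marker Cd8b1 had 3.07 and 2.93 CPM. Endothelial markers, 5 of 14 listed, summed to 19.03 and 13.6 CPM in the authors' deposited table (Cdh5, Kdr and Tek were not listed). Most of this was Pecam1, which leukocytes also express, at 17.7 and 12.1 CPM. Macrophage and monocyte markers, 16 of 16 listed, summed to 1664 CPM in Klrg1Cre and 2429 CPM in control, most of it Chil3 at 1124 and 1932 CPM (adjusted p = 0.599 in the authors' deposited table). Without Chil3 the other 15 summed to 539.8 CPM in Klrg1Cre and 496.5 CPM in control, the other way round, and 8 of the 16 had a lower and 8 a higher mean. Markers of ILC2, 10 of 10 listed, summed to 538.2 and 561.1 CPM in the authors' deposited table, and Th2 cells express several too. Gata3, the floxed gene, was the largest part, at 293.9 and 221.4 CPM, and went the other way from the sum. These sums are thus no measure of ILC2 content. None of the 10 had an adjusted p below 0.05 in the authors' deposited table. Before adjustment, 2 of them were lower and 4 higher in Klrg1Cre at p below 0.05, where 3.37% and 3.72% of all genes were. The lower ones were Klrg1, for which the Cre allele is named, at 4.19 against 48.4 CPM (adjusted p = 0.0701), and Arg1, at 53.9 against 98.5 CPM. Arg1 encodes arginase 1. The higher ones were Gata3, given above, Nmur1, a neuropeptide receptor gene, at 7.73 against 2.40 CPM (adjusted p = 0.0701 in the authors' deposited table), and the cytokine genes Il5 at 12.4 against 5.08 CPM and Il13 at 12.4 against 6.33 CPM. The part of these marker levels in the Gimap differences was not tested. Effects of the Cre allele, of any deletion of Gata3 and of any lack of ILC2 on the Gimap genes cannot be told apart in this design.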

How the data were processed

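RNA of 4 samples, 2 per genotype, had been sequenced, and the authors used STAR, Partek and mouse build mm9, per the submitters' processing notes. The aligner settings, the annotation and the statistical model are not given in the sources used here. The deposited table gives 1 comparison: group means in CPM, a deposited signal per gene that equalled 2 times the sum of both means in all 11883 rows, the deposited ratio and signed fold change, and the authors' p-values, whose adjusted form equalled a Benjamini-Hochberg adjustment in all 11883 rows. Per the file headers the means are least squares means, and per the values they include an offset of 0.0001 CPM. No sample has a column of its own, so the authors' p-values are the test here, in place of edgeR on counts.

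Library totals and reads were worked out in Python 3.11.15 as the whole numbers that give a deposited mean (for means of up to 20000 CPM). The margin was 1e-08 reads, widened in proportion to the mean for high means. A gene was kept where only a single pair of whole numbers lay within it. This procedure succeeded in both groups for 5351 genes (45.0%) and was tested on simulated data. Which library of a group is which sample is unknown, so they are told apart by size. With 2 libraries against 2, an exact permutation test cannot go below 0.333 (two-sided), so none was run. limma 3.58.1 (R 4.3.3, trended variance, log2(CPM + 1), mean of at least 1 CPM) was run as an alternative on 4242 genes, and pseudocounts, filters, scaling and left-out libraries were others. The members and gene lists were chosen with earlier results of these data known. All members are named. From each list, genes passing adjustment, the 3 lowest p-values and the highest mean could be named; Bax, Cd4, Gpnmb, Arg1, Il5 and the summed lists were added after their values were seen. Counting error alone is covered by read numbers. Sequences are from RefSeq (GRCm38.p6), a build other than that of the reads, and all 8 members matched by symbol.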

Additional observations from a re-analysis of the deposited data

How the results depend on the processing

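The count of Gimap genes past the threshold was 0 of 8 with the authors' adjusted p, where 0.0589% of all genes passed. It was 3 of 8 at an unadjusted p below 0.05, all lower in Klrg1Cre, against 3.37% of all genes lower and 3.72% higher. Under limma the count was 0 of the 3 genes with libraries, where 0.165% of all genes fitted were called. Leaving out each library in turn under limma, chosen after seeing the data, gave 0 to 2 of 3, the 2 being Gimap7 and Gimap6 without the smaller Klrg1Cre library. That last fit has a lone Klrg1Cre library and called a larger share of all genes than the fit with all libraries. The median log2 ratio of the members, -0.23, lay between -0.25 and -0.19 under other pseudocounts, filters and scaling. The summed level went from -0.27 to -0.30 as a share of the listed genes other than Rn45s. Of 36 alternative values for single members, 35 moved by less than 1 SD between libraries. For the 5 members with no libraries of their own, the median SD of Gimap6, Gimap7 and Gimap9 was used. The exception was Gimap7 without the smaller Klrg1Cre library, at -1.67. For left-out libraries this count is no measure of stability, because the SD comes from the same libraries and nearly bounds the shift in advance. The summed level of Gimap6, Gimap7 and Gimap9 was -0.65, and -0.93 to -0.42 without single libraries. No paired analysis was possible because the deposited columns are group means and carry no replicate numbers. For the 3 members with libraries worked out, the lowest count in a library was 194 reads; for the other 5 the reads per library are not known.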

Other observations

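Other GTPases and GTPase regulators of lymphocytes, outside the Gimap cluster, had means on both sides in the authors' deposited table. Of 15 such genes, 0 passed adjustment, 2 had higher means in Klrg1Cre at an unadjusted p below 0.05 and 0 lower ones (3.72% and 3.37% of all genes), and the median log2 ratio was 0.08. The higher ones were Dock8, an activator of CDC42 that T cells need to move through tissue, at 58.2 against 45.1 CPM (adjusted p = 0.610 in the authors' deposited table), and Arl4c, at 37.8 against 30.03 CPM (adjusted p = 0.698). Rac2, the haematopoietic Rac protein and the most abundant of the list, was at 354.7 against 336.1 CPM in the authors' deposited table (adjusted p = 0.930).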
